A study of Homo sapiens with 9 samples.

Results

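RNA polymerase II (RNAPII) peaks were followed at 8 genes of the minichromosome maintenance (MCM) family, MCM2, MCM3, MCM4, MCM5, MCM6, MCM7, MCM8 and MCM10, out of 19794 protein-coding genes. The members were chosen by name, and every peak was taken that overlapped the annotated span of the gene on the GRCh37 genome after widening by 500 bp. Chromatin immunoprecipitation and sequencing (ChIP-seq) of RNAPII had been carried out in cells of the human embryonic kidney line HEK293. Cells of the first arm carried a lentiviral control hairpin RNA (shRNA), or 1 of 2 hairpins against RECQL5, a DNA helicase that binds RNAPII, named shRNA5 and shRNA7. The control is described in the study's methods as an empty lentiviral vector. Cells of the second arm were T-REx cells with the pcDNA4/TO-RECQL5 plasmid, from which full-length RECQL5 is made when doxycycline is added, grown at 0.0 or 1.0 ng/ml of the drug. RECQL5 of the cells' own gene is present in both groups of that arm. Each hairpin had its own library with non-specific IgG as the background of its peak calls, and the labels name 1 further IgG library, from untreated cells. Both T-REx lists are assumed here to rest on it.

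MCM2, MCM3, MCM4, MCM5, MCM6 and MCM7 form the ring-shaped hexamer that is loaded onto replication origins in G1 and unwinds DNA ahead of the replication fork once CDC45 and the GINS complex have joined it. MCM8 is a related helicase that acts with MCM9 in repair by homologous recombination, and MCM10 is a fork protein outside the MCM helicase family proper that is needed to activate the loaded ring. Transcription of these genes is known to rise as cells enter S phase, under the control of E2F transcription factors, and the genes are active in proliferating lines such as HEK293.

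There was 1 library per group, so no difference below has a replicate check and no test between conditions was made. In the hairpin arm the control list held 5287 peaks and those of shRNA5 and shRNA7 held 23698 and 32124. In the T-REx arm there were 47060 peaks without the drug and 33900 with it. The 5 lists had 842310 to 6698771 sequenced tags inside peaks. Tags outside peaks were not used here, so a gene without a peak is not shown to lack RNAPII. The study's methods describe similar numbers of reads within each arm, and exact library totals were not used. The same methods describe longer peak lists for the hairpin arm than those analysed here, so a peak called gained, lost or missing is so in these lists only. By the approximate totals given there, the control list falls short by the largest share. Gains over control can therefore be larger in these lists than in the longer ones. Tag counts were not scaled to depth. The ratio of all tags in peaks was 4.49 for shRNA5 and 7.95 for shRNA7 against control, and 1.06 for doxycycline against no doxycycline. The smallest peak held 35 tags in the control list and 9 in the list without drug. Of 10 genes listed as HEK293 markers, 3, 6, 7, 8 and 6 had a peak at a start site in the lists in the order above, and NEFM, a neurofilament gene, had none in any list. None of 8 markers of liver, blood, pancreas or heart muscle cells had a peak in any list. RECQL5 itself had no peak upon control shRNA or shRNA5, 748 tags in peaks upon shRNA7, and 1171 and 1623 tags without and with doxycycline. Of the shRNA7 tags 280 lay in a peak at the start that also touched SAP30BP, and 468 in a peak past the end that also touched MYO15B. The T-REx cells also carry RECQL5 on the plasmid. In their lists the largest RECQL5 peak, of 679 tags without and 816 with the drug, had its summit in a coding exon. Whether such tags come from the plasmid or from the cells' own gene was not tested. RNAPII peaks on RECQL5 do not measure its protein.

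The promoters are shown first, because the peaks described below sit on them and because E2F sites are the feature these genes are known for. RefSeq promoter windows of 300 bases, from 250 before to 50 after the start site, were matched for 6 of the 8 genes, MCM2, MCM3, MCM6, MCM7, MCM8 and MCM10. They had 8 windows, 3 of them at MCM7. An E2F site was taken as TTTCCCGC, TTTCGCGC, TTTGCCGC or TTTGGCGC on either strand, so that a palindromic site such as that of MCM2 counts as 2 overlapping matches. Such a match lay in a window of 5 of the 6 genes, all but MCM10, and in 3.31% of 35116 promoters of the same length. Only 1 of the MCM7 windows held a match. The MCM count is thus by gene, whereas the share of all promoters is by window. There were 2 or more matches in MCM2, MCM3, MCM6 and MCM7, and in 0.145% of all promoters. The CCAAT box, searched as CCAAT on either strand, was found in 5 of the 6, all but MCM2, and in 34.6% of all promoters. These are matches of letters and not sites shown to be bound. The E2F matches of 4 genes are printed below in capitals on the gene's own strand, each with its flanks. Positions count from the start site, at 3 to 14 for MCM2 (chr3:127317247-127317276, plus strand), -174 to -167 and -4 to 4 for MCM3 (chr6:52149696-52149725 and chr6:52149526-52149555, minus strand), -9 to -2 for the MCM7 match nearest its start (chr7:99699011-99699040, minus strand), and 27 to 34 for MCM8 (chr20:5931313-5931342, plus strand).
MCM2: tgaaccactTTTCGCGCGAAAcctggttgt
MCM3 distal: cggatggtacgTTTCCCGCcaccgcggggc
MCM3 proximal: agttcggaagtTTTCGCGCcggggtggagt
MCM7: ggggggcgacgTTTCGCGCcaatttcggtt
MCM8: ggatcactgaaGCGCCAAAaaagaatttag

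The MCM6 promoter had 4 E2F matches, in 2 overlapping pairs on opposite strands, and 2 CCAAT boxes. The 120 bases before its start (chr2:136634014-136634133, minus strand) are set beside those of MCM10 (chr10:13203438-13203557, plus strand), the matched gene without an E2F match. E2F and CCAAT matches are in capitals. The MCM6 stretch holds the overlapping pair at -90 to -79 between its CCAAT boxes, and the MCM10 stretch holds both CCAAT boxes of that promoter. RNAPII peaks at the starts of MCM6 and MCM10 were present in the same 4 of the 5 lists.
MCM6: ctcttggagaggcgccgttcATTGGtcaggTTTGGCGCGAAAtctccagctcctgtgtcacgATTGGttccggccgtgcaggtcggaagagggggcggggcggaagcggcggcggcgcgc
MCM10: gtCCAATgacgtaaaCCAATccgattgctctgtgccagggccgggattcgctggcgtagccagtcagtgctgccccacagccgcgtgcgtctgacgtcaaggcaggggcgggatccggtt

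Peaks touching the 500 bp on either side of the start of a protein-coding transcript are called start-site peaks here, and other peaks that touch the gene from 500 bp past its start to its end are called body peaks. In T-REx cells all 8 genes had a start-site peak, with or without doxycycline, whereas the shares of all protein-coding genes with one were 57.0% and 48.2%. Upon control shRNA 4 of the 8 genes had one, namely MCM3, MCM4, MCM5 and MCM7, against 17.3% of all genes. With either RECQL5 hairpin 7 of the 8 had one, all but MCM3, against 44.5% (shRNA5) and 52.8% (shRNA7). The total of body peaks over the 8 genes was 2, 23 and 20 upon control shRNA, shRNA5 and shRNA7, and 51 and 66 without and with doxycycline. Over peaks with a fold enrichment of at least 10 the last 2 totals were 43 and 34, which turns their order. Several of the genes have internal starts in the annotation, and 1 to 4 peaks of each list counted as start-site peaks only through these. Lengths and numbers of peaks differed between the arms, so values are compared within an arm.

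Where they had peaks, the MCM genes were covered over more of their length than the median gene. Among genes with a peak, the median share of the span covered was 5.62% upon control shRNA, 9.24% with shRNA5, 14.3% with shRNA7, 4.37% without doxycycline and 3.70% with it. Among the MCM genes with a peak (4, 7, 7, 8 and 8 of them) the medians were 44.9%, 36.1%, 32.4%, 41.2% and 61.8%. The MCM medians were thus higher in each of the 5 lists, without an adjustment for gene length, and the single genes varied widely. MCM7 was covered to at least 99.4% in every list, and MCM8 to at most 2.03% in the T-REx arm.

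**Figure D1:**
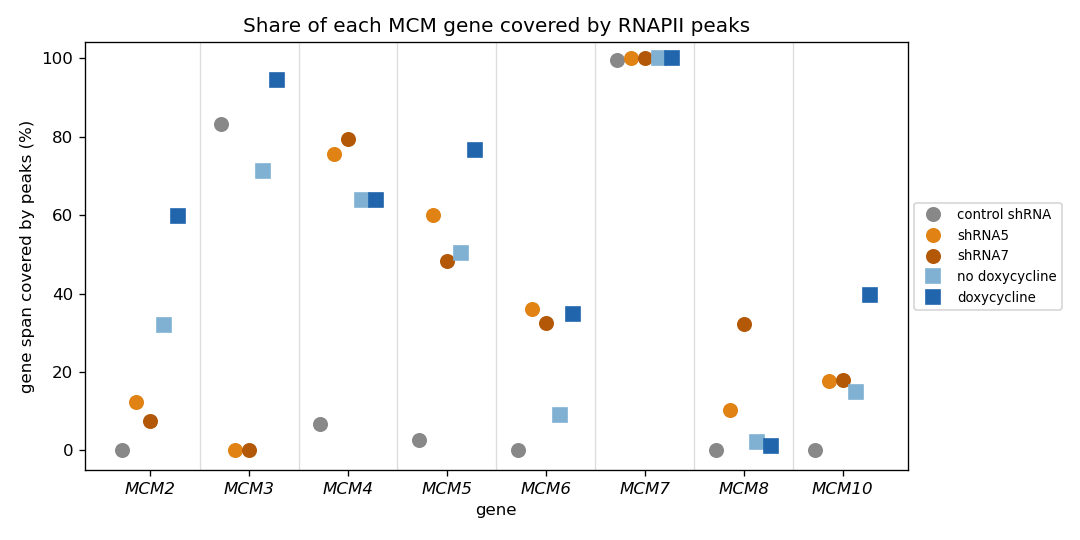
Share of each gene's annotated span covered by RNAPII peaks, in percent, for the 8 MCM genes (x axis). Circles are lists of the hairpin arm and squares those of the T-REx arm, with 1 library each. MCM7 is covered in full or nearly so in all 5 lists, and MCM3 has points at 0 for both RECQL5 hairpins and above 70% for the other 3 lists.

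Among the hexamer genes, MCM2 (chr3:127317253-127341279, plus strand) is transcribed away from TPRA1, whose start lies 144 bp away on the other strand, and its start-site peak touched both genes. Tags in peaks at MCM2 numbered 0 upon control shRNA, 196 with shRNA5, 232 with shRNA7, 248 without doxycycline and 629 with it. The peak at the promoter held 84 and 105 tags with the RECQL5 hairpins and 85 and 99 without and with the drug, so most of the difference with doxycycline lay further along the gene. Body tags were 163 in 9 peaks without doxycycline and 516 in 10 peaks with it, a ratio of 3.17 (95% interval 2.66 to 3.77). This interval and all others given here cover counting error only. With doxycycline the peaks from the summit at 15599 bp to the end of MCM2 ran nearly together, and the covered share went from 32.0% to 59.8%. With the hairpins, the body peak with the highest significance score (a scaled −log10 of the p-value of the peak call) lay over the end of the gene, with its summit downstream at 24528 bp (shRNA5) and 24979 bp (shRNA7) from the start.

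MCM3 (chr6:52128812-52149679, minus strand) was the exception in the hairpin arm. Its peaks held 1019 tags upon control shRNA, no peak was listed with shRNA5 or shRNA7, and 470 and 1157 tags were counted without and with doxycycline. The control value placed MCM3 at rank 170 of the 4448 genes with a peak in that list, above 96.2% of them. The 3 control peaks covered 83.1% of the gene, and the one at the promoter had 299 tags, a fold enrichment over background of 20.8 and its summit 70 bp past the start.

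Of the 4448 genes with a control peak, 11 had no peak in either RECQL5 hairpin list, or 0.247%, and 1 of the 4 MCM genes with a control peak was among them. MCM3 had the most control tags of the 11, followed by CCT5 with 892, BCLAF1 with 864 and BAG2 with 707. The nearest peaks beyond the MCM3 start were 85.5 kb (shRNA5) and 66.9 kb (shRNA7) away. Between the flanking hairpin peaks lay 2.69 Mb of chromosome 6 without a peak in either list, in which the control list held 4 peaks, the list without drug 12 and the doxycycline list 8, all within 5 kb of MCM3. MCM3 was therefore the only locus with peaks in that stretch in any list. Because the lists give no tags outside peaks, a loss of RNAPII from MCM3 and a loss of the peak call cannot be told apart.

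With doxycycline the peaks of MCM3 became fewer and longer. Body peaks went from 8 to 5, beside 1 and 2 at internal starts, their median length from 1185 to 2068 bp, and the covered share of the gene from 71.2% to 94.3%. All tags at MCM3 had a ratio of 2.46 (2.21 to 2.74). The promoter peak alone went from 110 to 198 tags, and a peak of 186 tags ran over the end of the gene, where the list without drug had none.

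MCM5 (chr22:35796127-35821424, plus strand) has no other protein-coding start within 1 kb on the opposite strand, and none of its peaks touched another coding gene. The counts of tags were 91 upon control shRNA, 1046 with shRNA5, 917 with shRNA7, 385 without doxycycline and 951 with it. The control list held a single MCM5 peak over the start, whereas with shRNA5 there were 8 peaks and with shRNA7 3, the first of them 9749 bp long. The ratios to control were 11.5 (9.28 to 14.2) and 10.1 (8.13 to 12.5). With the hairpins the largest body peak lay over the end of the gene, with 246 and 219 tags. Summits of the MCM5 promoter peak were upstream of the start in the hairpin arm, at -252, -305 and -312 bp, and downstream of it in the T-REx arm, at 54 and 76 bp.

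With doxycycline MCM5 also had fewer but longer body peaks, 9 against 13, with a median length of 2208 against 706 bp. Tags at MCM5 were more numerous in start-site and body peaks alike, with ratios of 2.37 (1.84 to 3.05) and 2.58 (2.25 to 2.95). The start-site peak was also longer with the drug, reaching 3482 bp past the start against 699 bp without it. Its density was 49.0 tags per kb with and 51.1 without the drug. The drug list had a peak of 4224 bp and 175 tags over the end of MCM5, where the list without drug had 20 tags in a peak near the end and 9 in another past it.

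MCM4 (chr8:48872745-48890720, plus strand) starts 7 bp from PRKDC, the gene for the catalytic subunit of DNA-dependent protein kinase, and every promoter peak touched both genes. Its peaks held 64 tags upon control shRNA, 835 with shRNA5, 996 with shRNA7, 396 without doxycycline and 509 with it. The single control peak covered 6.73% of MCM4, against 75.5% and 79.5% with the RECQL5 hairpins. The promoter peak alone went from 64 to 172 and 162 tags, and a peak of 6781 bp (shRNA5) or 8982 bp (shRNA7) lay inside the gene, from 5314 to 12094 bp past the start with shRNA5 and from 2931 to 11912 bp past it with shRNA7. The doxycycline ratio was 1.29 (1.13 to 1.47), the lowest of the 8 genes, and the covered share was 63.8% in both lists.

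MCM6 (chr2:136597196-136634013, minus strand) had the largest doxycycline ratio of the family over all peaks, but not over stronger peaks alone. No tags were listed upon control shRNA, and there were 823 (shRNA5), 731 (shRNA7), 118 (no doxycycline) and 512 (doxycycline) tags in peaks. Without the drug there was a peak at the MCM6 start with 97 tags and 2 body peaks with 21 tags between them. With the drug the start-site peak had 204 tags and 14 body peaks had 308, from 4675 to 36408 bp past the start by their summits. The ratio was 4.34 (3.55 to 5.30) over the whole gene, 2.10 (1.65 to 2.68) at the start and 14.7 (9.46 to 22.7) in the body. The body ratio rests on the 21 tags without drug, in peaks of 10 and 11 tags close to the minimum of that list. The body peaks with the drug were weak as well. Only the one of 22 tags with its summit at 4675 bp had a fold enrichment of at least 10, at 12.7. Without the drug only the one of 11 tags did, at 11.2. When peaks scoring under 100 were left out the MCM6 ratio was 3.51 and that of MCM10 4.12. Over peaks with a fold enrichment of at least 10 it was 2.09, below MCM2, MCM3, MCM5 and MCM10 at 2.32 to 2.57. The share of MCM6 covered went from 8.91% to 34.9%. In the hairpin lists the peaks lay at both ends, with others mid-gene that had summits at 20126 and 23574 bp (shRNA5) and 23136 bp (shRNA7), and the covered share was 36.1% and 32.4%.

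MCM7 (chr7:99689856-99699563, minus strand) is the shortest gene of the set and was the most heavily covered, with 910, 1795, 2447, 1054 and 1378 tags in the order of the lists used above. In 4 lists a single peak of 11993 to 14780 bp ran over the whole of MCM7 and touched AP4M1 and COPS6, whose coding transcripts lie on the other strand. It reached 13106 and 13263 bp past the MCM7 start with shRNA5 and shRNA7, and 10539 and 11060 bp without and with doxycycline. The hairpin peaks thus took in more of the COPS6 side. Without strand these tags cannot be divided between the genes. The summits of these single peaks differed between the arms. Without and with doxycycline they lay 86 and 98 bp past the MCM7 start, and with shRNA5 and shRNA7 they lay 9118 and 9239 bp past it, at the gene's end next to COPS6. The control list split the region into a peak of 325 tags with its summit 69 bp past the MCM7 start and a peak of 585 tags with its summit in the COPS6 part. Relative to control the ratios were 1.97 (1.82 to 2.14) and 2.69 (2.49 to 2.90), higher than in 20.7% and 11.4% of genes with a peak in both lists, and with doxycycline the ratio was 1.31 (1.21 to 1.42).

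An intron of MCM7 holds the microRNA genes MIR25, MIR93 and MIR106B, which lie inside the peaks in all 5 lists, 1281 to 2179 bp from the summit in the hairpin arm and 7225 to 7668 bp from it in the T-REx arm. A mature product of each is shown with the seed, bases 2 to 8, in capitals, as miR-93-5p and miR-106b-5p share it and miR-25-3p does not. RNAPII over the host gene does not measure the mature microRNAs.
hsa-miR-25-3p: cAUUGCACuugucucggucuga
hsa-miR-93-5p: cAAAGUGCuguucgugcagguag
hsa-miR-106b-5p: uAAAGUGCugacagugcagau

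MCM8 (chr20:5931298-5979623, plus strand) had low counts in T-REx cells and its highest count with shRNA7. Tags numbered 0 upon control shRNA, 419 with shRNA5, 1441 with shRNA7, 44 without doxycycline and 63 with it. The start-site peak, shared with TRMT6 at 94 bp, held 71 and 108 tags with the hairpins and 35 and 51 tags in T-REx cells. Of the shRNA7 tags 848 came from a peak of 12460 bp over the gene's end, with its summit 55490 bp past the start and therefore beyond MCM8, and that peak also touched CRLS1. A readthrough gene annotated over MCM8 and CRLS1 is touched by every MCM8 peak. The doxycycline ratio was 1.43 with an interval from 0.976 to 2.10, which includes 1. Low counts limit that comparison. MCM9, the partner of MCM8, had 207, 2131 and 2966 tags in the hairpin arm and 201 and 279 in T-REx cells. Peaks that also touched ASF1A, a gene inside the MCM9 span, held 2272 of the shRNA7 tags, and with shRNA5 the peaks of 980 and 345 tags did so.

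MCM10 (chr10:13203558-13253110, plus strand) differed more along its body than at its start when doxycycline was given. Its peaks held 0 tags upon control shRNA, 409 with shRNA5, 400 with shRNA7, 218 without doxycycline and 740 with it. Start-site tags were 98 without and 105 with the drug, a ratio of 1.07 (0.814 to 1.41). Without the drug 15 of them lay in a peak that counted only through an internal start. The promoter peak alone held 83 tags without and 105 with the drug. Body tags went from 120 in 9 peaks to 635 in 22 peaks, a ratio of 5.29 (4.36 to 6.43), and the covered share of the 49553 bp gene from 14.9% to 39.6%. The 22 peaks had summits from 4146 to 48836 bp past the start, and the 1 with most tags held 94. None of the MCM10 peaks touched another coding gene. Both RECQL5 hairpins gave body peaks at like positions, with summits 20184 and 40606 bp (shRNA5) and 20408 and 40929 bp (shRNA7) past the start.

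**Figure D2:**
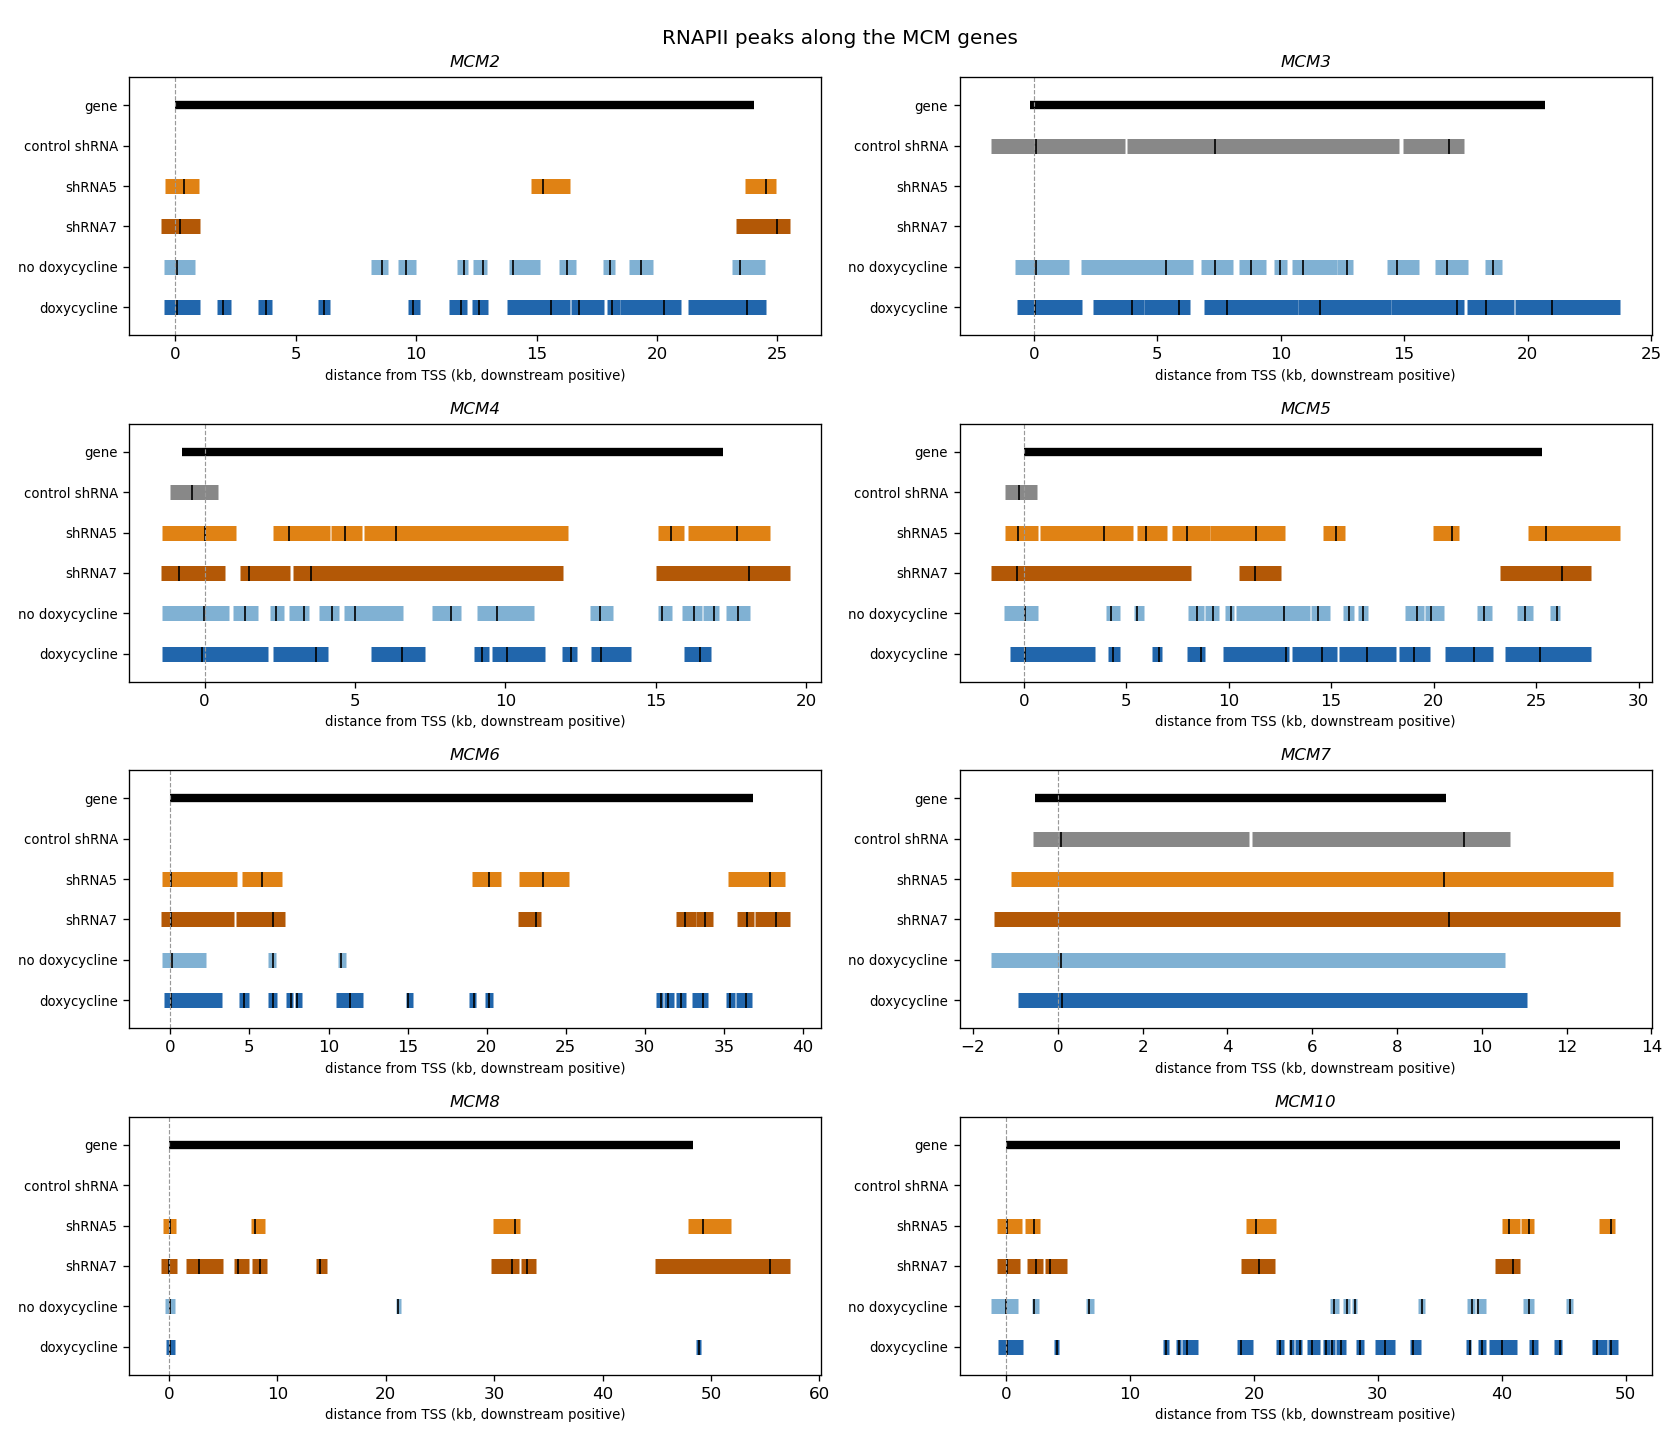
Position of every RNAPII peak at the 8 MCM genes, as distance from the start of the main transcript in kb (x axis, downstream positive), with 1 row per list and the gene as a black bar. Colored bars are peaks and black ticks their summits. MCM6 and MCM10 fill with small peaks in the doxycycline row, MCM3 has empty rows for both hairpins, and the MCM7 summits lie at the end of the gene in the shRNA5 and shRNA7 rows.

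The comparison of each RECQL5 hairpin with the control hairpin asks where RNAPII lies when RECQL5 is depleted. A start-site peak was gained at MCM2, MCM6, MCM8 and MCM10 with both hairpins, 4 of 8 genes in each case, while 27.3% (shRNA5) and 36.6% (shRNA7) of all genes gained one. Over peaks with a fold enrichment of at least 10 the gain at MCM10 was lost with both hairpins, which left 3 genes. More body peaks than in the control list were found at 6 of 8 genes with either hairpin, all but MCM3 and MCM7, against 27.0% and 35.4% of all genes. With the same limit on fold enrichment this held at 2 genes with shRNA5 (MCM4 and MCM5) and 3 with shRNA7 (MCM2, MCM4 and MCM8). The shares of all genes given here are over unfiltered peaks. None was computed under that limit, so the filtered counts have no background to be read against. MCM3 lost its start-site peaks in both. The control list, shared by both comparisons, was the shortest of the 5, and a gene with no control peak gets no ratio.

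The 3 MCM genes with peaks on both sides could be compared by tags. Tags were at least 2-fold higher at MCM4 and MCM5 with shRNA5, 2 of 3 genes, and at all 3 with shRNA7, against 78.7% and 95.8% of genes with a peak in both lists. MCM7 with 1.97 fell just short in the first. The MCM4 ratios were 13.0 (10.1 to 16.8) and 15.6 (12.1 to 20.0). The median ratio over all genes was 3.22 with shRNA5 and 6.62 with shRNA7, so that MCM4 and MCM5 lay above it and MCM7 below it with either hairpin. Summed over the 8 genes, MCM3 included, tags went from 2084 to 5523 and 7164, ratios of 2.65 (2.52 to 2.79) and 3.44 (3.27 to 3.61), beside the 4.49 and 7.95 of the whole lists. MCM3 held 1019 of the 2084 control tags and none with either hairpin, which lowers both ratios. They were not computed without MCM3, so they do not show that the other MCM genes fell short of the lists. Over peaks with a fold enrichment of at least 10 the shRNA5 ratio of the sums was 1.59. Without the peaks that touch another coding gene, 2 genes had a start-site peak upon control shRNA and 4 with either hairpin.

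**Figure D3:**
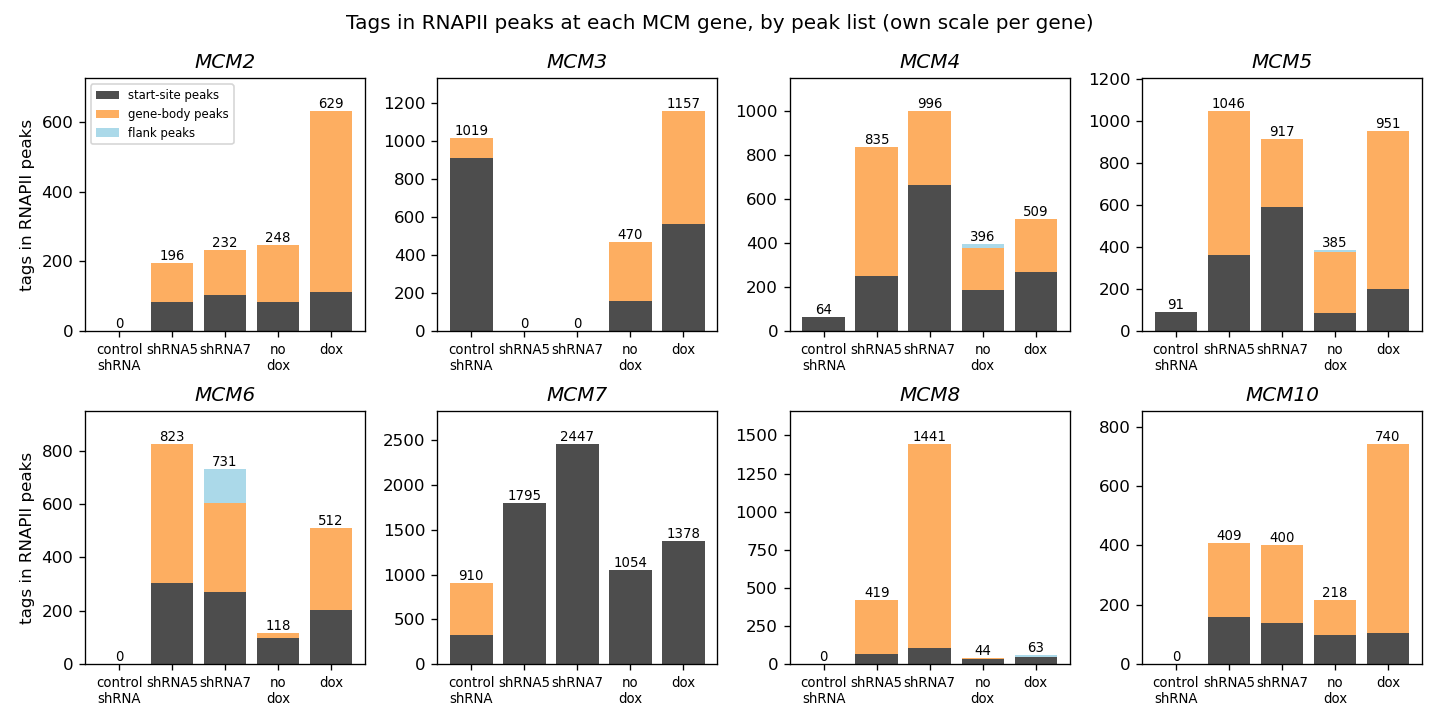
Tags in RNAPII peaks at each MCM gene (y axis, count, a separate scale for each gene) in the 5 lists, divided into start-site peaks (dark), body peaks (orange) and peaks only in the 500 bp flanks (blue), with 1 library per bar. MCM3 is the gene with a high control bar and none for the hairpins, and MCM2, MCM5, MCM6 and MCM10 have their doxycycline bar well above the bar without drug.

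Ends of genes carried peaks in the hairpin lists. A peak lay over the annotated end of 6 of the 8 genes with either hairpin, MCM2, MCM4, MCM5, MCM6, MCM7 and MCM8, and over the end of 1 (MCM7) upon control shRNA. Of the MCM genes with a start-site peak these were 6 of 7 with either hairpin and 1 of 4 upon control shRNA. Among all genes with a start-site peak the shares with a peak over the end were 36.8% (shRNA5), 47.1% (shRNA7) and 24.4% (control). In T-REx cells the ends of MCM2 and MCM7 had one without drug and those of MCM2, MCM3, MCM5 and MCM7 with it, beside 17.5% and 16.8% of genes. Most summits of body peaks lay in introns, 15 of 23 and 15 of 20 with the hairpins and 41 of 51 and 54 of 66 in T-REx cells, and 5 and 4 of the hairpin summits lay past the gene's end.

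The comparison with doxycycline asks where RNAPII lies when RECQL5 is overproduced. Tags in peaks were more numerous with doxycycline at all 8 MCM genes, and at least 2-fold so at 5 of 8, MCM2, MCM3, MCM5, MCM6 and MCM10, against 6.54% of the 10375 genes with a peak in both lists. The sum over the 8 genes went from 2933 to 5939 tags, a ratio of 2.02 (1.94 to 2.12), while the median ratio over all genes was 0.957. The ratio of MCM6 ranked 55 among the 10375 genes, that of MCM10 106, MCM2 308, MCM5 330 and MCM3 332. MCM8, MCM7 and MCM4 ranked 1925, 2506 and 2626. By the number of tags without drug, 3.66% to 9.09% of genes in 5 classes were past 2-fold. Of the 1353 genes with over 200 and up to 500 tags without drug, 9.09% were, and of the 5 MCM genes in that range 4 were.

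**Figure D4:**
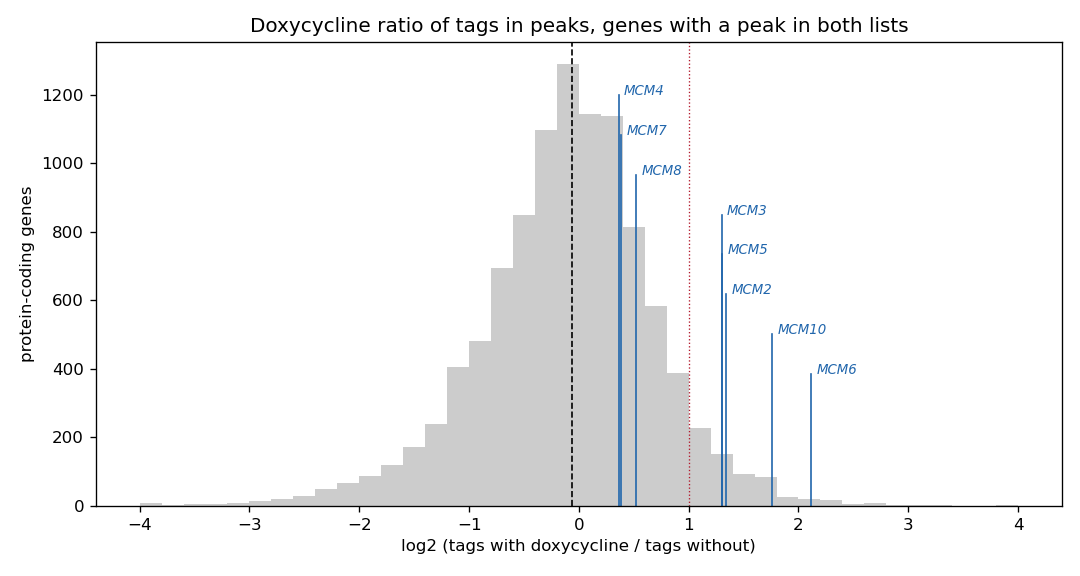
Distribution of the log2 ratio of tags in peaks with doxycycline over tags without it, for the 10375 protein-coding genes with a peak in both lists (y axis, number of genes), with the 8 MCM genes marked by blue lines whose heights only separate the labels. The dashed line is the median of all genes, the dotted line marks 2-fold, and values beyond 4 on either side are drawn at 4. All 8 genes lie to the right of the median and 5 lie past 2-fold.

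Summed over the MCM genes the difference was larger in body peaks than in start-site peaks, but single genes varied. Over the 8 genes body tags went from 1101 to 3035 and start-site tags from 1804 to 2892. The body ratio was the higher at MCM2, MCM6 and MCM10. At MCM6, body peaks with a fold enrichment of at least 10 held 11 tags without and 22 with the drug, beside 97 and 204 at the start. At MCM3 the start-site ratio, with internal starts counted, was 3.52 and the body ratio 1.91. That order rests on how peaks were classed, as the MCM3 promoter peak alone went from 110 to 198 tags. Peaks counted only through internal starts of MCM3 held 51 tags without the drug, and 205 and 163 with it. At MCM4 the ratios were 1.44 and 1.26, and at MCM4 and MCM5 the intervals of start and body overlapped. MCM7 had no body peak in either list, and MCM8 had 9 body tags without the drug and none with it. The median start-site ratio was 1.45 for the 8 members and 1.00 for all genes, and the median body ratio over all genes was 1.11. The covered share was at least 2-fold larger at 2 of 8 genes, MCM6 and MCM10, against 4.65% of genes. Over peaks with a fold enrichment of at least 10 it went from 7.52% to 10.7% at MCM6 and from 13.9% to 23.8% at MCM10. The median change in covered share was 23.9 percentage points for the members and -0.644 for all genes.

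Counts of body peaks gave a mixed picture. MCM2, MCM6 and MCM10 had more body peaks with doxycycline, 3 of 8 against 9.03% of all genes, and MCM3, MCM4, MCM5 and MCM8 had fewer, 4 of 8 against 27.7%. Over peaks with a fold enrichment of at least 10, more were found at 2 genes, MCM2 and MCM10, and fewer at the same 4. No share of all genes was computed under that limit. At MCM3 and MCM5 the smaller number went with longer peaks, more tags and a larger covered share. Body peaks of the members held a median of 21.9 tags per kb without and 34.1 with the drug, but the medians over all peaks of the lists were 22.3 and 32.5, so the density inside peaks differed by about as much across the lists as a whole. With peaks under 1 kb apart merged, the totals of body peaks were 21 and 23 in place of 51 and 66.

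Other replication genes served for comparison. Of 26 licensing and helicase-activation genes (origin recognition complex, loaders, CDC45, GINS, kinases and their partners, MCM9), 17, 24 and 24 had a start-site peak in the hairpin arm and all 26 in both T-REx lists. Their median doxycycline ratio was 1.28, and 5 of 26 were at least 2-fold higher. These 5, named after their values were seen, were TIPIN (2.78), DONSON (2.47), MCMBP (2.32), CLSPN (2.25) and CDC45 (2.14). ORC6, named in the same way, was at least 2-fold lower, at 0.484. By tags over the 5 lists the leading genes were TICRR, CDT1, DONSON and MCM9, with doxycycline ratios of 1.61, 1.17, 2.47 and 1.39. A control peak without a counterpart in a hairpin list was also seen at 3 of these genes, each in 1 list. DONSON had 1179 control tags, 2803 with shRNA5 and none with shRNA7, and CDC6 likewise had 554, 1727 and 0. GMNN had 516 control tags, 0 with shRNA5 and 2418 with shRNA7. CDC6 and GMNN were named after their values were seen. Of all 4448 genes with a control peak, 26 (0.585%) had none with shRNA5 and 188 (4.23%) none with shRNA7.

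Of 23 fork genes (polymerases alpha, delta and epsilon, clamp and clamp loader, RPA, FEN1 and LIG1), 10, 21 and 23 had a start-site peak in the hairpin arm and 23 and 22 in T-REx cells. The median doxycycline ratio was 1.13 over the 22 with peaks in both lists, of which 5 were at least 2-fold higher. These, again named after their values were seen, were POLA1 (4.43), RFC1 (3.09), RFC3 (2.59), RFC2 (2.15) and POLD2 (2.12). The leading genes by tags were RFC4, PCNA, RFC5 and POLE, with ratios of 1.17, 1.46, 1.88 and 1.21. The median of the 8 MCM genes, 2.47, thus lay above those of both lists and of all genes. Median ratios of the licensing and fork lists were 3.12 and 4.49 with shRNA5 and 9.20 and 6.16 with shRNA7.

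The protein-coding genes whose start-site tags over the 5 lists were nearest to the median of the MCM genes were RPN1, RFC3 and MCMBP, at Euclidean distances of 2.49, 2.76 and 2.76 on log2(tags + 1). MCMBP encodes a protein that binds MCM complexes and RFC3 a clamp loader subunit. RPN1 encodes a subunit of the oligosaccharyltransferase of the endoplasmic reticulum.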

How the data were processed

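The authors aligned reads with Bowtie 0.12.7 to hg19 and called peaks with MACS 1.4.2 for each RNAPII library against IgG. For each peak the deposited lists give positions, tags (a count, not normalised by the authors), a significance score (a scaled −log10 of the p-value), the authors' fold enrichment as a ratio over local background, and the authors' false discovery rate in percent. Peaks were assigned to 19794 protein-coding genes of GENCODE release 44 on GRCh37 with Python 3.11.15 (minimum overlap 1 bp), and the assignment was tested on simulated data. Start-site peaks touch 500 bp on either side of a coding start. Ratios are of tags, not scaled, with 95% Wilson intervals turned into odds, and a gene is called past 2-fold. With 1 library per group no model was fitted.

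The 8 members and all gene lists were chosen with earlier results of these data known. Genes named are the members, genes sharing their promoters or touched by their peaks, MCM9, RECQL5, the 4 with most tags of each replication list, those with no peak in any list, the 3 nearest by start-site tags, and those marked in the text as named after their values were seen. Promoter windows and microRNAs come from RefSeq (GRCh38.p14), with promoters located on GRCh37 by exact match.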

Additional observations from a re-analysis of the deposited data

How the results depend on the processing

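No paired analysis was possible because there was 1 library per group, and for the same reason no replicate could be left out. Of 107 recomputed values, 73 stayed close to the reported ones (a count within 1.5 times, a ratio within its interval) and 34 moved. No ratio crossed 1. With a start-site window of 1 kb or the longest transcript all stayed within these limits. The doxycycline ratio was above 1 at every gene with a value, and past 2-fold at 5 genes, under each alternative run. Some of these runs could not change it. All tags of a gene are the same with another start-site window or transcript. Leaving out MCM7 does not touch the ratios of the other genes. The highest false discovery rates in the T-REx lists were 1.09% and 3.47%, so the 5% limit removed no peak there. Ratios fixed in this way are also among the 73 values that stayed close. Genes with a value numbered 6 without peaks that touch another coding gene, and 7 without MCM7. The share of all genes past 2-fold was 6.99% with a significance score of at least 100. It was 6.54% with a false discovery rate of at most 5%, 3.05% with a fold enrichment of at least 10, and 6.71% with peaks merged. That share is not given for the other settings.

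With a significance score of at least 100, 2 genes had a start-site peak in the control list, body peaks numbered 1, 11, 10, 22 and 34 (control, shRNA5, shRNA7, no doxycycline, doxycycline), and the shRNA7 ratio was 3.65. With a false discovery rate of at most 5% there were 13 body peaks with shRNA7. With a fold enrichment of at least 10, body peaks numbered 1, 2, 4, 43 and 34, which turns the order without and with doxycycline, and the ratios were 1.59, 2.64 and 1.83 (shRNA5, shRNA7, doxycycline). With peaks under 1 kb apart merged, body peaks numbered 0, 15, 13, 21 and 23, and the shRNA5 ratio was 3.08. With summits inside the widened span, the ratios were 2.44 (shRNA5) and 2.67 (shRNA7). Without peaks that touch another coding gene, 2, 4, 4 and 5 genes had a start-site peak (control, shRNA5, shRNA7, no doxycycline), body peaks numbered 1 (control) and 13 (shRNA7), and the ratios were 2.71 (shRNA7) and 2.63 (doxycycline). Without MCM7, chosen after seeing the data because its peak also covers COPS6 and AP4M1, they were 3.18, 4.02 and 2.43. Beyond what fewer or merged peaks bring about by construction, the cause was not tested. The short control list and tags known only inside peaks limit the hairpin comparisons.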
